A study of Homo sapiens with 96 samples.

Results

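The genes described here are 9 that encode inhibitory coreceptors of B cells, their relatives in the Fc receptor-like family, and a phosphatase that works behind them: CD22, FCGR2B, CD72, LAIR1, FCRL1, FCRL3, FCRL5, FCRLA and PTPN6, the gene of SHP1. They were taken by symbol from the array annotation, which gave 21 of the 54675 probe sets and 9 of the 19775 genes that have a probe set of their own. Transcription was measured in 4 human lymphoma lines, the mantle cell lymphomas REC1 and Z138 and the diffuse large B cell lymphomas SUDHL4 and OciLy18, after 4 h in culture with an antibody at 10 µg/ml. The antibodies were rituximab, which binds CD20 and has a human Fc part, LT20, which binds CD20 and has a murine Fc part, anti-IgM, the F(ab')2-fragment of anti-IgM, anti-IgG and, as the isotype treatment, human IgG, while the F(ab')2-fragment of rituximab was used in REC1 only. The labels give the same dose for the fragments, but the study's methods give a lower mass dose of the anti-IgM fragment, chosen to be equimolar. Untreated controls 1 to 3 were available for every line and controls 4 to 6 for SUDHL4, OciLy18 and Z138, so that there were 96 arrays in 32 groups of 3. Each treatment was compared with controls 1 to 3 of its line, and anti-IgG in SUDHL4, OciLy18 and Z138 with controls 4 to 6. Each line stands for 1 tumor, and nothing says that the 3 arrays of a group came from separate cultures, so the p-values measure the spread between these arrays, which may be technical.

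Signals through the B cell receptor are held back by membrane proteins that carry immunoreceptor tyrosine-based inhibitory motifs (ITIMs). The kinases that start the signal also phosphorylate these motifs, which then bind phosphatases. SHP1, the product of PTPN6, takes phosphate from tyrosines of the receptor complex, while SHIP1, the product of INPP5D, removes a phosphate from the lipid that PI3 kinase makes. CD22 is a lectin for sialic acids and CD72 a lectin-like receptor that also binds the semaphorin SEMA4D, and both recruit SHP1. FCGR2B is the inhibitory Fc receptor for IgG and acts mainly through SHIP1 when an immune complex ties it to the B cell receptor. LAIR1 is an ITIM receptor for collagens. The Fc receptor-like proteins differ among themselves: FCRL1 has an activating tail, FCRL3 carries activating and inhibitory motifs, FCRL5 binds IgG and is mainly inhibitory, and FCRLA stays inside the cell.

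The values are signals from Affymetrix arrays, so a level is given for 1 probe set and is not compared between genes. The probe set with the highest mean over all arrays stands for its gene, and other probe sets are named where they add a result. A gene was tested in a line where at least 1 group mean passed 100, and it was called where 1 of its probe sets had an adjusted p under 0.05 in limma, a change above 2-fold and a mean above 100 in 1 of the compared groups. The same rule was applied to all genes, and the percentage of all tested genes that it called is given beside the members' counts. The members and the other lists were chosen with earlier results of these data known. Counts above these percentages are therefore descriptions and no test of an excess. Arrays of one group correlated with r of at least 0.976 over the probe sets. All 5 B cell markers on the array were measured in the 4 lines, with summed signals of 5402 to 13554. The 6 monocyte markers stayed below 100 in every group. In REC1 the T cell marker CD3D had a signal of 1353 in untreated cells and CD3G one of 125, while CD3E (62.2) and CD2 (20.3) were low. In Z138 the NK cell marker PRF1 had a signal of 490.8 in untreated cells, while the other 5 NK cell markers stayed below 100. The T cell marker CD247 had 154 in untreated SUDHL4 and 102 in untreated OciLy18. The highest single arrays reached 119.5 for CD3G in Z138 and 172 for PRF1 in REC1. The part of these markers in the results was not tested. Each sample was a culture of 1 cell line, in which fewer transcribing cells and less RNA per cell cannot be told apart.

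In untreated cells the 4 lines differed in which of the 9 genes they transcribed. PTPN6 had its highest signal in REC1, 1420.1 ± 69.5 (SD, n = 3), against 217 ± 135 in Z138, 68.1 ± 7.64 in SUDHL4 and 48.1 ± 8.28 in OciLy18 (SD, n = 6 each). SUDHL4 and OciLy18 did not differ by 2-fold for this gene (log2 difference 0.51, adjusted p = 0.0414 in limma), whereas each of the other pairs of lines was called. CD22 ran in another order, with 1221 ± 70.8 in SUDHL4, 691 ± 77.2 in OciLy18, 307 ± 15.98 in REC1 and 24.5 ± 9.93 in Z138. Its signal in Z138 was near the bottom of the scale in every array (11.8 to 39.7), also after treatment, and CD22 was not tested there. FCGR2B reached 459 ± 104 in Z138 and 249 ± 52.2 in SUDHL4, against 130.4 ± 15.7 in REC1 and 32.6 ± 8.17 in OciLy18. The difference between SUDHL4 and Z138 was below 2-fold (log2 difference -0.88, adjusted p = 0.000119), as was that between SUDHL4 and REC1 (0.92, adjusted p = 0.000636).

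The Fc receptor-like receptors were mainly REC1 transcripts. FCRL3 had a mean signal of 2073 ± 82.6 in REC1, 277 ± 27.8 in SUDHL4, 44.9 ± 20.9 in OciLy18 and 15.7 ± 5.98 in Z138. FCRL5 had 1300.3 ± 90.2 in REC1 and means of 15.4, 72.8 and 48.7 in SUDHL4, OciLy18 and Z138. FCRL1 had 454 ± 31.0 in REC1 and 132 ± 11.1 in OciLy18, against 83.9 ± 7.39 in SUDHL4 and 3.84 ± 3.69 in Z138. LAIR1 passed a mean of 100 in REC1 only (180.4 ± 28.2), where it was 4.70-, 6.95- and 6.70-fold above SUDHL4, OciLy18 and Z138. FCRLA was the gene with the least difference between the lines: 1840 ± 54.8 in SUDHL4, 1451 ± 88.0 in Z138, 1390 ± 64.0 in OciLy18 and 699.9 ± 32.6 in REC1, with no difference detected between OciLy18 and Z138 (log2 difference -0.06, adjusted p = 0.269). CD72 had 331 ± 33.2 in OciLy18, 146 ± 35.7 in SUDHL4, 131 ± 27.0 in Z138 and 100.6 ± 6.46 in REC1, and the 3 lower lines did not differ by 2-fold from each other. In the comparison SUDHL4 over REC1, 7 of the 9 members were called, beside 31.9% of all tested genes, and in REC1 over OciLy18 and REC1 over Z138 8 each, beside 29.3% and 29.6%. Between SUDHL4 and OciLy18 3 were called, beside 23.7%, between SUDHL4 and Z138 3, beside 25.5%, and between OciLy18 and Z138 5, beside 18.7%.

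**Figure D1:**
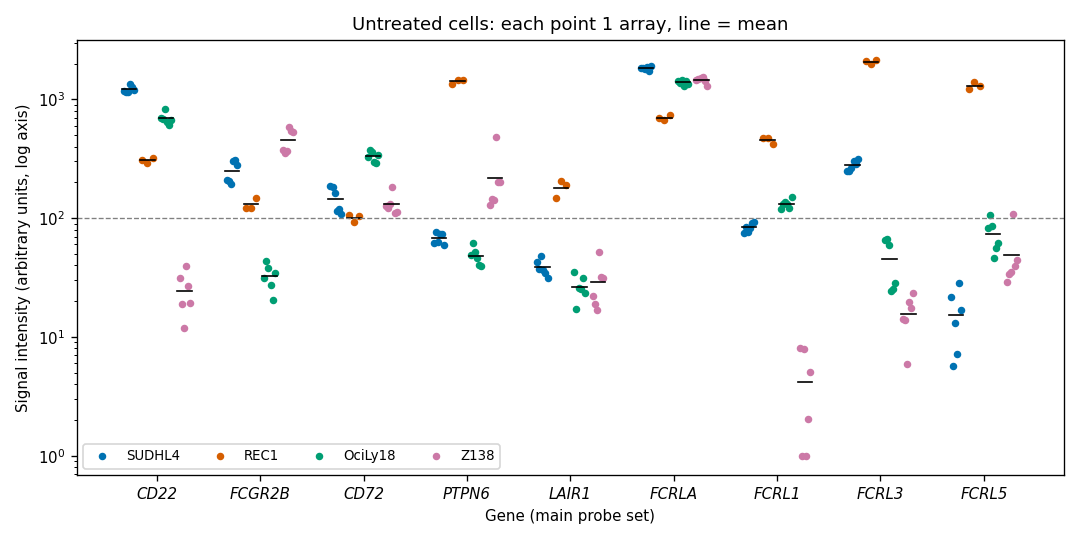
Signals of the 9 genes in untreated cells of SUDHL4, REC1, OciLy18 and Z138, 1 point per control array on a log axis (signals under 1 are drawn at 1), with the mean of each line as a bar and a dashed line at 100. PTPN6, FCRL3 and FCRL5 are highest in REC1 (1420.1, 2073 and 1300.3), CD22 is at 24.5 in Z138, and FCRLA lies between 699.9 and 1840 in all 4 lines.

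The sequence before a start site is shown for 4 of the genes that were called in more than 1 line. These are the neighbors FCGR2B and FCRLA, which fell, and CD72 and PTPN6, which rose. CD22 and FCRL3 were also called in more than 1 line and are not shown. The stretches are the 250 bases before a RefSeq start site on GRCh38.p14, at chr1:161662893-161663142 on the plus strand for FCGR2B, chr1:161706979-161707228 on the plus strand for FCRLA, chr9:35618414-35618663 on the minus strand for CD72 and chr12:6951106-6951355 on the plus strand for PTPN6. FCGR2B and PTPN6 have another annotated start site further upstream, and the downstream one is shown. Capitals mark the letters AGGAAG on either strand, the core of sites for ETS factors of the PU.1 type.
FCGR2B: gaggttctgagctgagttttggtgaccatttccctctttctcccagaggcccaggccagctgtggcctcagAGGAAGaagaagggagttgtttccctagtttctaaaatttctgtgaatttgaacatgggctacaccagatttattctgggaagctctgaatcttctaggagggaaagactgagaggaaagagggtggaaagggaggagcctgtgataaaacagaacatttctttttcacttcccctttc
FCRLA: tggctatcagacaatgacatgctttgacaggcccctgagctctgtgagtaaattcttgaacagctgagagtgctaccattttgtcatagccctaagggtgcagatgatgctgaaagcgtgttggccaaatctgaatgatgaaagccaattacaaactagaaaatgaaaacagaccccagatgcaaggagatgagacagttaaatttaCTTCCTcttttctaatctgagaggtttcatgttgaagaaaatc
CD72: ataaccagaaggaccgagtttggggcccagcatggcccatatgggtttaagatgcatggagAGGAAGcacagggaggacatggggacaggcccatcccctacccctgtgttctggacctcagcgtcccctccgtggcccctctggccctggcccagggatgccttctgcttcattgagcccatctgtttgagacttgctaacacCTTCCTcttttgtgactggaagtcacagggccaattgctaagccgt
PTPN6: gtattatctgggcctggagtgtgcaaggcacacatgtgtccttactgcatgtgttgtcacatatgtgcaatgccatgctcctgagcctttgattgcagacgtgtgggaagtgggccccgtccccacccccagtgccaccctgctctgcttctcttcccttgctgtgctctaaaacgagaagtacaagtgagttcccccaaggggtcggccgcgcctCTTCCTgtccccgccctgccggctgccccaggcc
These letters occurred before 10 of the 12 annotated start sites of the 9 genes, and before 28.7% of all 35116 promoters of the same length. They were absent before the upstream start of FCGR2B and the start of FCRL3, neither of which is shown. The AP-1 motif TGANTCA was found before 3 of the 12, the upstream start of FCGR2B and the starts of FCRL1 and FCRL3, against 6.57% of all promoters. The E-box CAGGTG was found before 2 of the 12, the upstream start of PTPN6 and 1 of LAIR1, against 17.5% of all promoters. The octamer ATTTGCAT, the cyclic AMP response element TGACGTCA, the EGR motif GCGNGGGCG, the FOXO motif GTAAACA and the NF-kB motif GGGACTTTC were found before none of the 12, against 1.63%, 1.65%, 8.41%, 2.98% and 0.325% of all promoters. The motifs were searched on both strands, and a match describes letters and not binding. FCGR2B, FCRLA and FCRLB follow each other on chromosome 1, with 44086 bases between the starts shown for FCGR2B and FCRLA, and FCRL5, FCRL4, FCRL3, FCRL2 and FCRL1 form another row of neighbors on that chromosome.

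The 4 lines responded with different members and in different directions. In SUDHL4, where 6 members could be tested, 5 were called with rituximab, 3 with LT20 and 4 with anti-IgG, beside 6.71%, 7.6% and 9.21% of all genes. Isotype, anti-IgM and the anti-IgM fragment called 0 of the 6 there, beside 0%, 0.0555% and 0.472%. The study's flow cytometry found IgG but no IgM on the surface of SUDHL4. In REC1 all 9 could be tested, and rituximab, its fragment and LT20 called 1, 2 and 3 of them, beside 2.09%, 3.86% and 6.34%, while anti-IgM, its fragment and anti-IgG called 7, 6 and 7, beside 14.8%, 17.4% and 12.8%. Isotype called 0 of the 9 in REC1, beside 0.778%. In OciLy18 6 could be tested. Anti-IgM, its fragment and anti-IgG called 3 each, beside 4.38%, 5.13% and 1.67%, LT20 called 1, beside 0.103%, and rituximab and isotype called 0, beside 0% each. In Z138 5 could be tested, of which rituximab and LT20 called 1 each, beside 0.105% and 0.171%, anti-IgM and its fragment 2 each, beside 3.45% and 5.42%, and anti-IgG 3, beside 6.4%, while isotype called 0, beside 0%. All calls in OciLy18 and Z138 were increases, whereas REC1 had 16 decreases among its 26 calls and SUDHL4 6 among 12. Where the control mean was under 100, the rule could call an increase only. Among the calls this held for PTPN6 in OciLy18 and SUDHL4 and for FCRL5 in Z138, so the directions are partly set by the rule.

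The median log2 change of the tested members was -0.75 with anti-IgM in REC1 and 0.90 in OciLy18, against -0.05 and -0.04 over all genes tested in those lines. With anti-IgG it was 1.81 in Z138, 0.95 in OciLy18, 0.56 in SUDHL4 and -0.67 in REC1, against -0.02, -0.02, -0.08 and -0.05 over all genes. The number of members behind these medians is small, and the members tested were those with a mean above 100 somewhere in the line. The 25 comparisons within a line share controls, so their values stand side by side as descriptions.

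**Figure D2:**
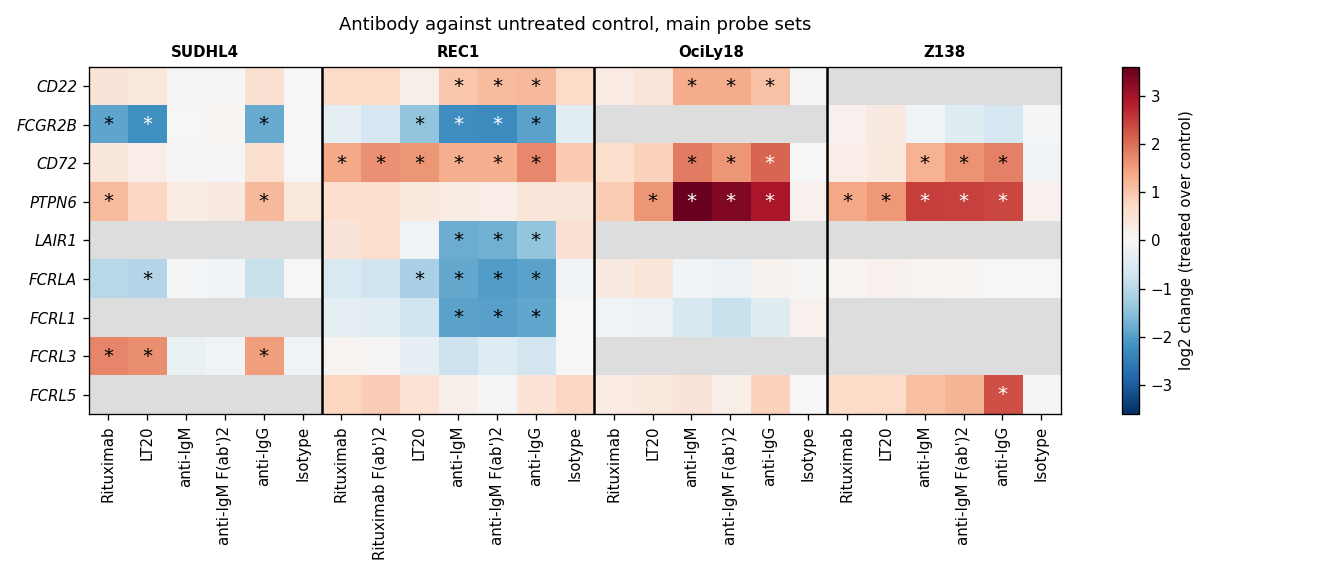
Log2 change of each gene (rows) in each treatment against its control (columns, grouped by line), as color from lower to higher. An asterisk marks a call by the gene's main probe set and grey a gene that was not tested in the line; decreases are seen in SUDHL4 and REC1 for FCGR2B and FCRLA, and PTPN6 has its largest increase, 3.55, with anti-IgM in OciLy18.

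FCGR2B, the inhibitory IgG receptor, fell in SUDHL4 with both CD20 antibodies and with anti-IgG. Rituximab left 58.9, 59.3 and 46.0 in the 3 arrays and LT20 45.2, 48.6 and 39.4, against 209.7, 203.7 and 194.7 in controls 1 to 3. Anti-IgG left 73.3, 101 and 81.5, against 300.0, 308 and 281 in controls 4 to 6. No treated array overlapped with its controls. The decrease was 3.73-fold with rituximab (log2 change -1.90 ± 0.11 SE, adjusted p = 9.05e-13), 4.58-fold with LT20 (-2.20 ± 0.11, adjusted p = 5.51e-14) and 3.498-fold with anti-IgG (-1.81 ± 0.11, adjusted p = 1.33e-12). The arrays with anti-IgM gave 208, 193 and 202, and those with its fragment 199.8, 209.6 and 232, so that both groups overlapped with controls 1 to 3.

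In REC1 the receptor fell with LT20 and with all 3 antibodies against the B cell receptor. LT20 gave 49.2, 39.0 and 60.3, against 121, 122 and 149 in the controls, a 2.66-fold decrease (log2 change -1.41 ± 0.18, adjusted p = 7.09e-07). Anti-IgM gave 22.1, 28.5 and 32.8, its fragment 28.5, 27.2 and 23.7 and anti-IgG 39.2, 36.4 and 28.3, which corresponds to decreases of 4.73-fold (adjusted p = 1.63e-10), 4.92-fold (9.4e-11) and 3.78-fold (2.81e-09). All 12 of these arrays were below all 3 controls. Rituximab gave 106, 91.7 and 105, a change of -0.36 ± 0.18 that missed the threshold (adjusted p = 0.137), and its fragment 92.4, 84.4 and 78.1 (-0.61 ± 0.18, adjusted p = 0.00863, below 2-fold). The isotype arrays were at 88.0, 106 and 98.9, also below the controls, and against them the log2 changes were -0.997 with LT20, -1.82 with anti-IgM, -1.88 with its fragment and -1.50 with anti-IgG. None of these was called, since both means were then under 100, and the change with LT20 was also just under 2-fold (1.996-fold). FCGR2B was also measured in Z138, where anti-IgG gave 353, 360.3 and 379, against 583, 540.2 and 535 in controls 4 to 6 (log2 change -0.60 ± 0.06, adjusted p = 2.87e-08, below 2-fold). Controls 1 to 3 of that line were lower (357 to 374) and overlapped with the anti-IgG arrays. The other antibodies changed it by between -0.45 with the anti-IgM fragment and 0.31 with LT20 there. In OciLy18 the signal was 20.5 to 64.5 in all arrays and was not tested. The probe set of FCGR2B may also take up transcripts of the near-identical FCGR2C, so the share of each gene is uncertain.

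FCRLA, an intracellular relative that binds immunoglobulins in the endoplasmic reticulum, fell in the same 2 lines. In SUDHL4 LT20 gave 965, 843 and 827 and rituximab 957, 958 and 872, against 1845, 1853 and 1815 in controls 1 to 3. The change was -1.07 ± 0.06 with LT20 (2.10-fold, adjusted p = 8.63e-14) and -0.99 ± 0.06 with rituximab (1.98-fold, adjusted p = 4.15e-13), which the rule called only through another probe set (697 against 1396, 2.004-fold). Anti-IgG gave 1021, 1079 and 1050.2, against 1866, 1749 and 1912 in controls 4 to 6 (-0.81 ± 0.06), and was likewise called through that probe set (851 against 1815, -1.10). In that probe set controls 4 to 6 stood above controls 1 to 3 (1396) and isotype (1392), against which the decrease with anti-IgG was 1.64-fold each, so that this call was lost. The call for rituximab was lost with log2(signal + 16), at 1.98-fold. No treated array of the main probe set overlapped with its controls.

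In REC1 FCRLA fell to 286, 344 and 314 with LT20, 207, 197 and 177 with anti-IgM, 171, 179 and 175 with its fragment and 177, 163 and 220.1 with anti-IgG, against 697, 669 and 734 in the controls. These are decreases of 2.23-fold with LT20 (log2 change -1.16 ± 0.10, adjusted p = 1.08e-09), 3.62-fold with anti-IgM (adjusted p = 8.91e-14), 3.99-fold with the fragment (2.02e-14) and 3.77-fold with anti-IgG (6.32e-14). Rituximab and its fragment gave smaller changes of -0.56 ± 0.10 and -0.72 ± 0.10, with all arrays below the controls. Against the isotype arrays (598, 624 and 647) the decrease with LT20 was 1.985-fold, and the call remained through another probe set (221 against 504, 2.28-fold). In OciLy18 the changes ran from -0.22 with the anti-IgM fragment to 0.45 with LT20, and in Z138 from -0.03 with anti-IgG to 0.15 with LT20.

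**Figure D3:**
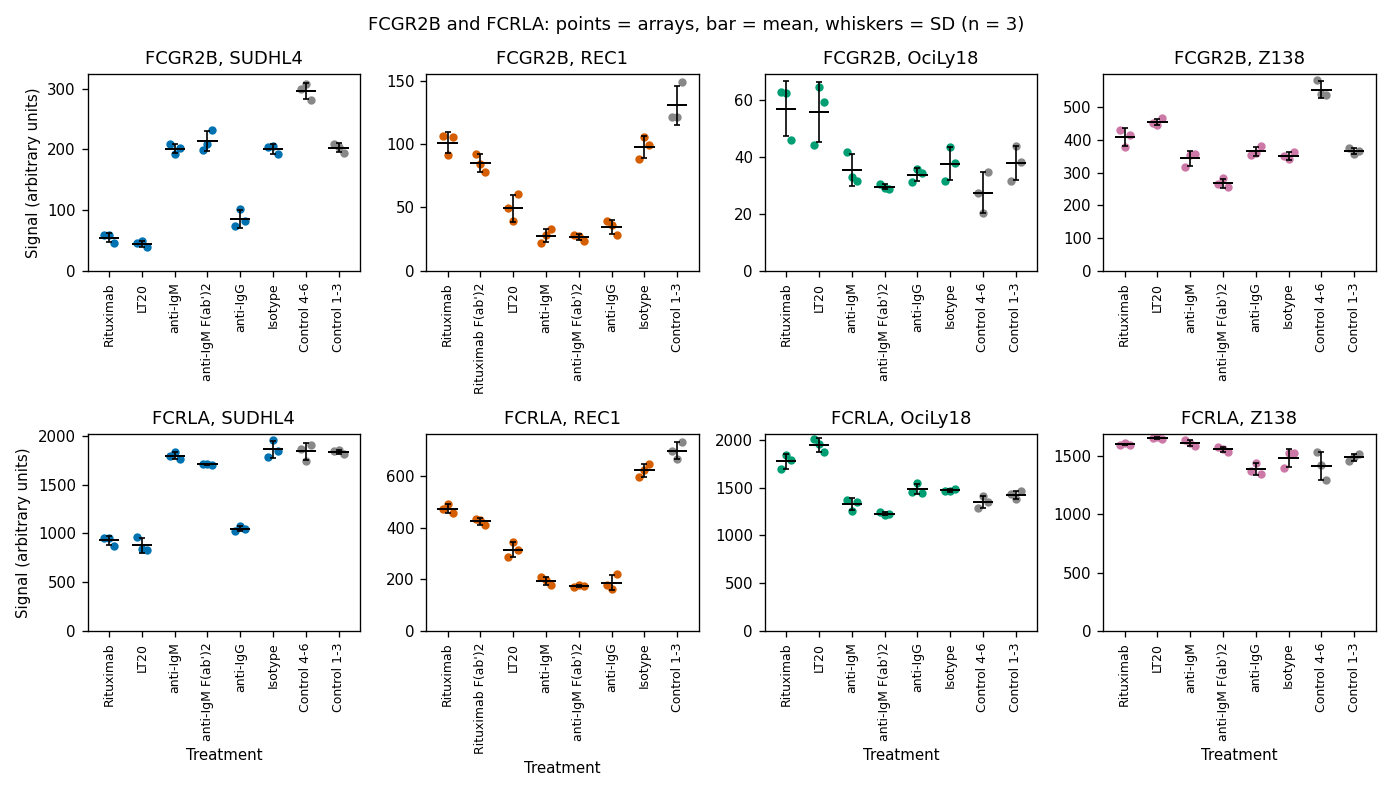
Signals of FCGR2B and FCRLA in the 4 lines on linear axes from 0, 1 point per array, with the mean as a bar and the SD as whiskers (n = 3), and with treatments to the left and isotype and controls to the right. In SUDHL4 and REC1 the arrays with LT20 and anti-IgG, and in REC1 also those with anti-IgM and its fragment, lie below all controls of their comparison.

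Of the receptors that recruit SHP1, CD22 rose in REC1 and OciLy18 with the antibodies against the B cell receptor. In REC1 anti-IgM gave 597, 647 and 610.1, its fragment 675, 667 and 677 and anti-IgG 660.0, 722 and 704, against 307, 291 and 323 in the controls. The increases were 2.02-fold (log2 change 1.01 ± 0.08, adjusted p = 5.69e-10), 2.20-fold (1.13 ± 0.08, 6.58e-11) and 2.27-fold (1.18 ± 0.08, 4.4e-11). The call for anti-IgM was lost when control replicate 2 or anti-IgM replicate 2 was left out (lowest log2 change 0.97), and with log2(signal + 16), where it was also 0.97. CD22 was also higher with human IgG, at 468, 552 and 457, and against these isotype arrays the changes were 0.33 with anti-IgM, 0.46 with its fragment and 0.50 with anti-IgG, none of them 2-fold. With the CD20 antibodies it was below 2-fold, at 0.70 with rituximab, 0.71 with its fragment and 0.22 with LT20, although another probe set called the rituximab fragment, a call that was lost against isotype and with log2(signal + 16).

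In OciLy18 CD22 reached 1772, 1874 and 1974 with anti-IgM and 1937, 1847 and 1754 with the fragment, against 697, 686 and 835 in controls 1 to 3. Anti-IgG gave 1324, 1297 and 1384, against 647, 609 and 671 in controls 4 to 6. All treated arrays were above all controls, by 2.54-fold with anti-IgM (log2 change 1.35 ± 0.08, adjusted p = 2.72e-12), 2.51-fold with its fragment (1.32 ± 0.08, 3.15e-12) and 2.08-fold with anti-IgG (1.06 ± 0.08, 6.28e-10). Rituximab and LT20 gave 0.29 and 0.43. The isotype arrays, at 653, 781 and 690.0, overlapped with the controls. Against them the change with anti-IgG was 0.92 in this probe set, and against controls 1 to 3 it was 0.86, both below 2-fold. The call of the gene remained through its other probe sets, of which 1 had 1204 with anti-IgG, against 406 with isotype (2.97-fold) and 383 in controls 1 to 3 (3.15-fold). In SUDHL4, which has the highest CD22 signal of the untreated lines, the changes were 0.46 with rituximab, 0.38 with LT20 and 0.55 with anti-IgG. The call of CD22 for rituximab there came from a single other probe set (591 against 291, log2 change 1.02), and in that probe set controls 4 to 6 also stood above controls 1 to 3 (609 against 291, log2 difference 1.06, adjusted p = 2.03e-08).

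CD72, the other lectin-like receptor, rose in REC1 with every antibody against CD20 or the B cell receptor. Rituximab gave 265, 264 and 253, its fragment 313, 309 and 327 and LT20 279.7, 332 and 299.6, against 105, 93.3 and 103 in the controls. Anti-IgM gave 268, 245 and 240.5, its fragment 245, 247 and 258 and anti-IgG 322, 413 and 286. All 18 of these arrays were above the controls. The increases were 2.59-fold (rituximab, log2 change 1.37 ± 0.11, adjusted p = 1.37e-09), 3.15-fold (its fragment, 3.42e-11), 3.01-fold (LT20, 4.04e-11), 2.496-fold (anti-IgM, 3.66e-10), 2.49-fold (its fragment, 3.4e-10) and 3.35-fold (anti-IgG, 3.36e-12). Human IgG alone gave 174, 205 and 204, a change of 0.95 (adjusted p = 1.2e-06) that was just under 2-fold. Against these isotype arrays the changes of CD72 fell to between 0.37 with the anti-IgM fragment and 0.79 with anti-IgG, and no call was left.

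In OciLy18 and Z138 CD72 rose with the antibodies against the B cell receptor. OciLy18 cells had 1287, 1303 and 1236 with anti-IgM and 1069, 1051 and 1064 with the fragment, against 324, 372 and 362 in controls 1 to 3, and 1305, 1336 and 1341 with anti-IgG, against 298, 290.5 and 342 in controls 4 to 6. The increases were 3.62-fold (log2 change 1.86 ± 0.07, adjusted p = 5.17e-16), 3.02-fold (1.59 ± 0.07, 9.99e-15) and 4.29-fold (2.10 ± 0.07, 1.34e-16). In Z138 anti-IgM gave 284, 305 and 313 and its fragment 380.3, 414 and 365, against 127, 121 and 132, while anti-IgG gave 439, 462 and 491, against 184, 110.5 and 114. No array overlapped with its controls, and the increases were 2.37-fold (adjusted p = 7.32e-08), 3.05-fold (6.87e-10) and 3.51-fold (7.51e-11). In both lines the isotype arrays overlapped with controls 1 to 3, and against them every one of these calls remained. The CD20 antibodies changed CD72 by 0.62 (rituximab) and 0.82 (LT20) in OciLy18 and by 0.23 and 0.36 in Z138, below 2-fold. In SUDHL4 the changes ran from -0.08 with the anti-IgM fragment to 0.57 with anti-IgG.

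PTPN6, the gene of the phosphatase that CD22 and CD72 recruit, rose in SUDHL4, OciLy18 and Z138, and the increase in OciLy18 was the largest change of all members. There anti-IgM gave 592, 665 and 632 and its fragment 545, 552 and 529, against 48.8, 62.0 and 51.5 in controls 1 to 3, and anti-IgG gave 283, 347 and 345, against 46.6, 39.97 and 39.8 in controls 4 to 6. The increases were 11.7-fold with anti-IgM (log2 change 3.55 ± 0.10, adjusted p = 1.14e-18), 10.1-fold with the fragment (3.33 ± 0.10, 3.36e-18) and 7.70-fold with anti-IgG (2.95 ± 0.10, 9.54e-17). LT20 gave 159.7, 166 and 158, a 3.00-fold increase (1.58 ± 0.10, 1.68e-10), and rituximab 105, 101 and 98.4, which was below 2-fold (0.91 ± 0.10, 4.29e-06). The isotype arrays, at 59.5, 59.5 and 61.0, lay within the range of the controls, and all treated arrays of these 5 groups lay above it. Since the control means are under 100, where the array loses precision, the folds depend on a low reference.

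In Z138 PTPN6 rose with all 5 antibodies. Rituximab gave 358, 360 and 369 and LT20 400.4, 412 and 410, against 129, 146 and 141 in controls 1 to 3. Anti-IgM gave 793, 762 and 775 and its fragment 767, 749 and 769.7. Anti-IgG gave 1437, 1528 and 1364, against 484, 202 and 202 in controls 4 to 6. No array overlapped with its controls, and the increases were 2.62-fold (adjusted p = 0.000118), 2.95-fold (2.58e-05), 5.61-fold (3.48e-10), 5.51-fold (1.91e-10) and 5.34-fold (2.17e-10). The control array at 484 stood apart from the other 5 untreated arrays, and without it anti-IgG gave 7.15-fold (log2 change 2.84, adjusted p = 1.74e-18). Against controls 1 to 3 anti-IgG gave 10.4-fold, and against controls 4 to 6 anti-IgM gave 2.87-fold and its fragment 2.82-fold. Controls 4 to 6 were above controls 1 to 3 for this gene, so the calls of the CD20 antibodies depended on the triplicate used: against controls 4 to 6 the change was 0.42 with rituximab (adjusted p = 0.0677) and 0.59 with LT20 (adjusted p = 0.0143), neither of them 2-fold. Against the isotype arrays, at 161, 160.3 and 139, both calls remained, with changes of 1.24 and 1.41. The NK cell marker PRF1 rose in Z138 with the same 3 antibodies against the B cell receptor, with means of 769 against 270.0 for anti-IgM and 2128 against 712 for anti-IgG. The sum of the 6 NK cell markers ran from 256 to 2249, with the other 5 below 100 in every array, and the part of PRF1 in the values of PTPN6 was not tested.

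In SUDHL4 PTPN6 had 161, 166 and 117 with rituximab, against 61.7, 76.5 and 62.9 in controls 1 to 3, and 155, 163 and 147 with anti-IgG, against 74.2, 74.1 and 59.2 in controls 4 to 6. The increases were 2.19-fold (log2 change 1.13 ± 0.14, adjusted p = 3.73e-07) and 2.25-fold (1.17 ± 0.14, 1.62e-07), and LT20 gave a change of 0.76 ± 0.14 that was below 2-fold (adjusted p = 8.34e-05). With log2(signal + 16) the change with rituximab was 0.97 (1.96-fold) and the call was lost. Anti-IgM and its fragment gave 0.27 and 0.32 (adjusted p = 0.243 and 0.0955). Isotype arrays were at 94.2, 99.0 and 71.8, and against them the changes were 0.74 with rituximab and 0.82 with anti-IgG, below 2-fold. In REC1, which had the highest signal before treatment (1339.9, 1461 and 1459.6), no treatment reached 2-fold. The treated arrays lay between 1591 and 2391 and all above the controls, with changes from 0.25 ± 0.07 with the anti-IgM fragment to 0.61 ± 0.07 with rituximab, and the isotype arrays were at 1942, 2008 and 1866.

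**Figure D4:**
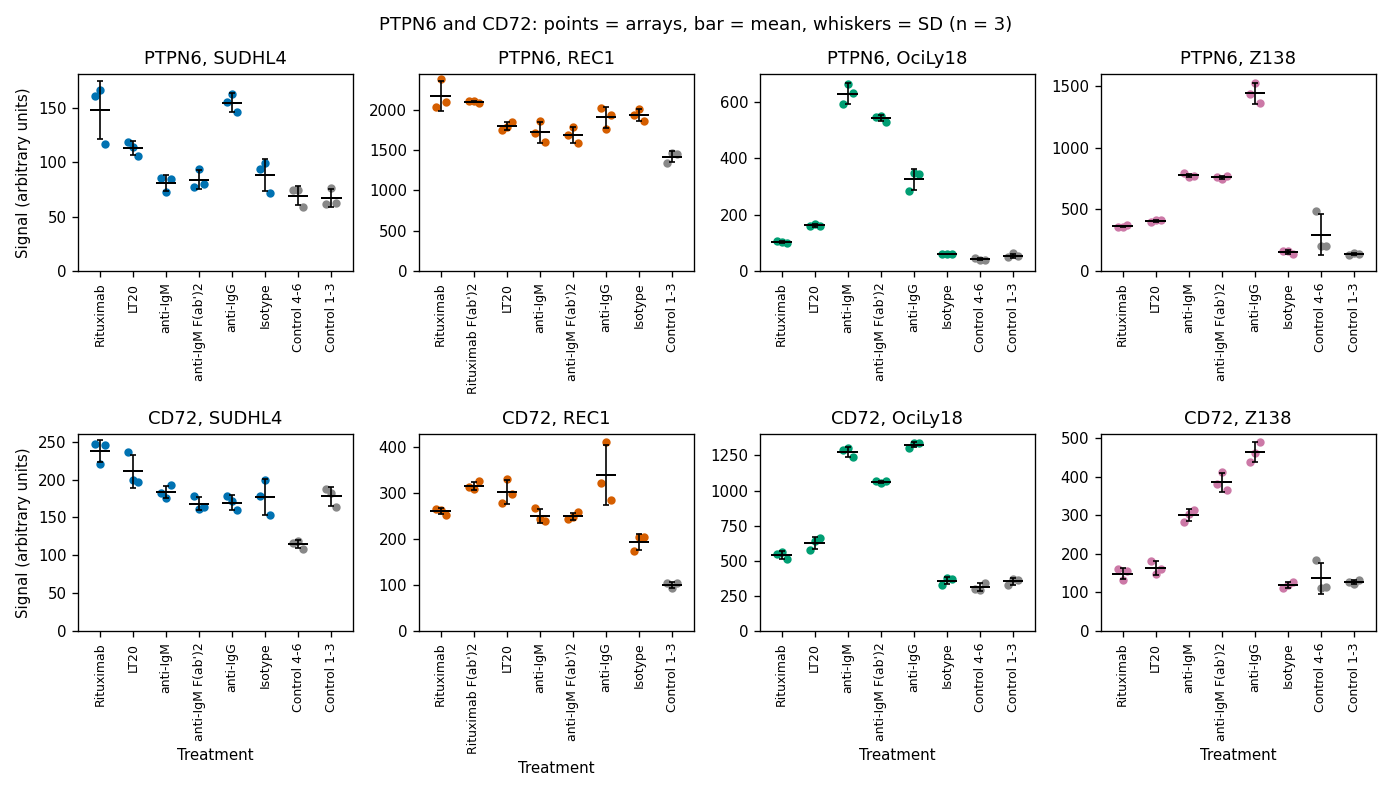
Signals of PTPN6 and CD72 in the 4 lines on linear axes from 0, 1 point per array, with the mean as a bar and the SD as whiskers (n = 3), and with treatments to the left and isotype and controls to the right. In OciLy18 and Z138 the arrays with anti-IgM, its fragment and anti-IgG lie above all controls for both genes, and PTPN6 in REC1 starts at 1339.9 to 1461.

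LAIR1, the collagen receptor, and FCRL1, the family member with an activating tail, fell in REC1 with the antibodies against the B cell receptor. LAIR1 fell to 52.6, 52.0 and 50.7 with anti-IgM, 54.8, 54.5 and 51.7 with its fragment and 68.4, 68.9 and 63.9 with anti-IgG, against 149, 204 and 188 in the controls. The decreases were 3.46-fold (log2 change -1.79 ± 0.13, adjusted p = 3.47e-11), 3.33-fold (-1.74 ± 0.13, 5.25e-11) and 2.67-fold (-1.42 ± 0.13, 2.44e-09). With rituximab and its fragment LAIR1 moved the other way, by 0.47 ± 0.13 and 0.63 ± 0.13, below 2-fold, as it did with human IgG (239, 315 and 234), while LT20 gave -0.12 (adjusted p = 0.498). FCRL1 fell to 107, 128 and 125 with anti-IgM, 119, 101 and 137 with its fragment and 119.7, 118 and 132 with anti-IgG, against 472, 472 and 419 in the controls. The decreases were 3.78-fold (-1.92 ± 0.11, adjusted p = 7.8e-13), 3.85-fold (-1.94 ± 0.11, 5.61e-13) and 3.68-fold (-1.88 ± 0.11, 1.45e-12). No array of these groups overlapped with the controls for either gene. The probe set of FCRL1 can bind other transcripts, but its second probe set fell as well. In OciLy18, the other line in which FCRL1 was tested, it moved by -0.59 ± 0.13 with anti-IgM, -0.81 ± 0.13 with the fragment and -0.44 ± 0.13 with anti-IgG, below 2-fold. Its second probe set had means of 32.7 with anti-IgM and 26.6 with the fragment, against 83.4 in controls 1 to 3, a larger relative decrease at signals under 100, where it was not tested. With the CD20 antibodies FCRL1 moved by -0.36 ± 0.11 (rituximab), -0.38 ± 0.11 (its fragment) and -0.71 ± 0.11 (LT20, adjusted p = 1.81e-05) in REC1 and by -0.12 and -0.21 with rituximab and LT20 in OciLy18.

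FCRL3, which carries both kinds of motif, rose in SUDHL4 with rituximab, LT20 and anti-IgG, and fell in REC1 with anti-IgM and anti-IgG. In SUDHL4 it reached 843, 897 and 837 with rituximab and 891, 736 and 806 with LT20, against 249, 248 and 266 in controls 1 to 3, and 820.1, 1039 and 708 with anti-IgG, against 303, 286 and 314 in controls 4 to 6. The increases were 3.38-fold (log2 change 1.76 ± 0.10, adjusted p = 1.33e-13), 3.18-fold (1.67 ± 0.10, 2.85e-13) and 2.81-fold (1.49 ± 0.10, 1.63e-12). Anti-IgM gave 218, 206 and 216, its fragment 241, 222 and 235 and isotype 236, 246 and 218, all below the lowest control of 248, with changes of -0.25 and -0.13 for the anti-IgM antibodies that missed the threshold (adjusted p = 0.0927 and 0.359). In REC1 anti-IgM gave 1249, 1277 and 1169 and anti-IgG 1369, 1040.0 and 1567, against 2092, 1983 and 2145 in the controls. These changes of -0.75 ± 0.12 (adjusted p = 1.6e-05) and -0.67 ± 0.12 (7.74e-05) were below 2-fold, and the call came from the second probe set, which fell to 112 with anti-IgM and 137 with anti-IgG, against 310.2 (log2 changes -1.49 and -1.18). The anti-IgM fragment gave -0.46 ± 0.12 (adjusted p = 0.0023) in the main probe set of REC1, below 2-fold. The CD20 antibodies, with which the gene rose in SUDHL4, gave 0.09 with rituximab (adjusted p = 0.659) and 0.04 with its fragment (0.853) there, both overlapping with the controls, and -0.30 with LT20 (0.0568).

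FCRL5, which binds IgG, rose in Z138 with anti-IgG. The arrays gave 317, 274 and 283, against 109, 39.9 and 44.6 in controls 4 to 6, a 5.02-fold increase (log2 change 2.33 ± 0.29, adjusted p = 4.49e-07). The groups did not overlap, but the first control was again the array that stood apart, and without it the increase was 6.90-fold (2.79, adjusted p = 3.39e-09), while against controls 1 to 3 it was 8.91-fold. Anti-IgM gave 74.4, 65.2 and 67.8 and its fragment 79.3, 86.5 and 66.4, against 29.1, 33.7 and 35.5 in controls 1 to 3 (1.08 ± 0.29, adjusted p = 0.00418, and 1.24 ± 0.29, adjusted p = 0.001). These were not called, as no mean passed 100. Rituximab and LT20 gave 0.65 and 0.70 (adjusted p = 0.277 and 0.253). In REC1 the signal was high throughout, 1211, 1391 and 1299 in the controls, and rose by up to 0.88 ± 0.10 with the rituximab fragment (2283, 2854 and 2078). The isotype arrays of REC1 were as high (2328, 2110.4 and 2059). Rituximab gave 0.78 ± 0.10 there, LT20 0.52 ± 0.10, anti-IgG 0.50 ± 0.10, anti-IgM 0.19 ± 0.10 and its fragment -0.05 ± 0.10. In OciLy18 FCRL5 changed by 0.84 ± 0.15 with anti-IgG (97.2 against 54.4, adjusted p = 0.000196) and by 0.22 to 0.46 with the other antibodies, all below 2-fold. The 54.4 is the mean of controls 4 to 6, while controls 1 to 3 (91.3) and isotype (92.5) lay near the anti-IgG mean.

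**Figure D5:**
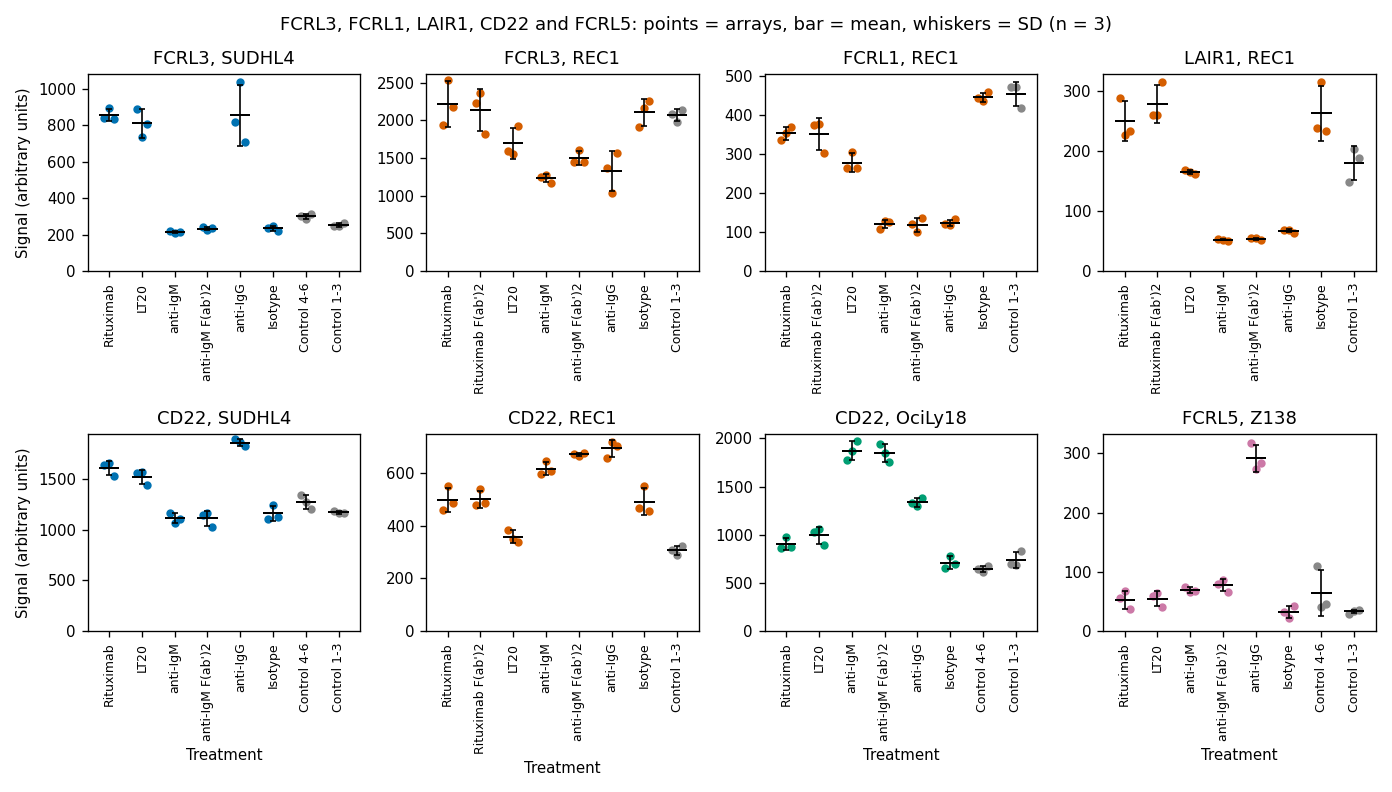
Signals of FCRL3 in SUDHL4 and REC1, of FCRL1 and LAIR1 in REC1, of CD22 in SUDHL4, REC1 and OciLy18 and of FCRL5 in Z138 on linear axes from 0, 1 point per array, with the mean as a bar and the SD as whiskers (n = 3), and with treatments to the left and isotype and controls to the right. FCRL3 lies at 708 to 1039 in SUDHL4 with rituximab, LT20 and anti-IgG, above all controls, and LAIR1 and FCRL1 lie below all controls in REC1 with anti-IgM, its fragment and anti-IgG.

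The fragments lack the Fc part of the antibody, the part of IgG that FCGR2B and FCRL5 can bind. Whether the Fc part of the anti-IgM used here binds these receptors was not tested. Over the 35 tested values of fragment against whole antibody, the log2 differences ran from -0.36 to 0.36 and none was called. Of these, 6 are from SUDHL4, where no surface IgM was found and neither anti-IgM form called a member. Those values cannot show how a response to IgM ligation depends on the Fc part. Of all genes 0%, 0.217%, 0.0513% and 0.0525% were called for the anti-IgM fragment in SUDHL4, REC1, OciLy18 and Z138, and 0% for the rituximab fragment in REC1. In 2 of the 35 the adjusted p was under 0.05: FCGR2B in Z138, with means of 268 with the fragment and 343 with anti-IgM (log2 difference -0.36 ± 0.06, adjusted p = 0.00082), and CD72 in OciLy18, with 1061 and 1275 (-0.26 ± 0.07, adjusted p = 0.0247). For PTPN6 in OciLy18 the difference was -0.21 ± 0.09 and for FCGR2B in REC1 -0.06 ± 0.18. The precision of these comparisons does not show equal responses, and the fragment's dose differed by mass according to the methods.

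LT20 and rituximab, which bind the same antigen with a murine and a human Fc part, gave log2 differences of LT20 over rituximab from -1.05 to 0.67 over 26 values. In REC1 FCGR2B was lower with LT20, 49.5 against 101 (-1.05 ± 0.18, adjusted p = 0.000432), and this was called, as was FCRLA through another probe set (221 against 450.3, -1.03), 2 of 9 members beside 0.37% of all genes. Both values lie close to the limits of the rule. Without rituximab replicate 3 FCGR2B was still 2.03-fold lower, but the rituximab mean of 98.9 was under 100, and FCRLA was 1.96-fold lower, so that neither was called. Without replicate 1 FCGR2B was lost in the same way (2.02-fold, mean 98.5), and without replicate 2 FCRLA (1.985-fold). In REC1 CD22 (-0.48 ± 0.08, adjusted p = 0.000787), LAIR1 (-0.59 ± 0.13, adjusted p = 0.00453) and PTPN6 (-0.27 ± 0.07, adjusted p = 0.0152) were also lower with LT20, below 2-fold. In OciLy18 PTPN6 was higher with LT20, 161 against 101 (0.67 ± 0.10, adjusted p = 0.00165). In SUDHL4, OciLy18 and Z138 no member was called, beside 0% of all genes in each line.

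The 2 control triplicates of SUDHL4, OciLy18 and Z138 differed in 9 of 17 member values at an adjusted p under 0.05, with log2 differences of controls 4 to 6 over controls 1 to 3 from -0.75 to 0.97. PTPN6 in Z138 had means of 296 and 138.4 (0.97 ± 0.19), FCGR2B in Z138 553 and 366 (0.60 ± 0.06), CD72 in SUDHL4 114 and 178 (-0.63 ± 0.10) and FCRL5 in OciLy18 54.4 and 91.3 (-0.75 ± 0.15). CD22 in SUDHL4, through the probe set named above, was the only member called. Of all genes 3.28%, 1.18% and 1.78% were called in SUDHL4, OciLy18 and Z138. The labels do not say in what the triplicates differ. Of the 31 calls of members in these 3 lines 27 remained against the other triplicate and 28 against all 6 controls. Those lost against the other triplicate were CD22 with rituximab and FCRLA with anti-IgG in SUDHL4 and PTPN6 with rituximab and LT20 in Z138, of which PTPN6 with LT20 remained against all 6.

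Whether the lines responded differently was tested as the difference of their log2 changes in 1 model of all arrays. Among members measured in both lines, 26 of 63 such differences were called by the main probe set, beside 6.57% of those of all genes by the same rule. PTPN6 rose less in REC1 than in OciLy18 with anti-IgM (-3.27 ± 0.20, adjusted p = 9.86e-24), its fragment (-3.08 ± 0.20) and anti-IgG (-2.52 ± 0.20), and less than in Z138 (-2.21, -2.21 and -1.99). FCRLA fell in REC1 relative to OciLy18 (-1.75, -1.78 and -2.05 with anti-IgM, its fragment and anti-IgG) and to Z138 (-1.97, -2.06 and -1.89), each with an SE of 0.09. FCGR2B fell in REC1 relative to Z138 by -2.15 ± 0.20 with anti-IgM, -1.85 ± 0.20 with its fragment and -1.32 ± 0.20 with anti-IgG. With rituximab it fell more in SUDHL4 than in REC1 (-1.53 ± 0.20, adjusted p = 5.7e-09). FCRL3 rose in SUDHL4 relative to REC1 with rituximab (1.67 ± 0.25), LT20 (1.97 ± 0.25) and anti-IgG (2.16 ± 0.25, adjusted p = 5.07e-11), whereas CD72 rose less in SUDHL4 with LT20 (-1.35 ± 0.15) and anti-IgG (-1.17 ± 0.15). Human IgG alone changed CD72 by 0.95 in REC1 and by -0.01 in SUDHL4. Against isotype the REC1 changes of CD72 were 0.64 with LT20 and 0.79 with anti-IgG, and the line difference against isotype was not tested. In REC1 the isotype mean of PTPN6 (1939) was above those with anti-IgM (1725), its fragment (1689) and anti-IgG (1911). Human IgG changed PTPN6 by 0.45 and FCGR2B by -0.42 there. The line differences of these genes against isotype were not tested either.

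Counted over all 9 members and all their probe sets, including genes near background in 1 of the lines, the differences called for SUDHL4 minus REC1 were 3 with rituximab, 3 with LT20 and 6 with anti-IgG, beside 6.08%, 9.7% and 12.2% of all genes. For REC1 minus OciLy18 they were 4, 4 and 6 with anti-IgM, its fragment and anti-IgG, beside 12%, 12.2% and 11.7%. For REC1 minus Z138 they were 6, 7 and 6, beside 14.3%, 14.6% and 11%. For OciLy18 minus Z138 they were 2, 1 and 2 genes, beside 3.11%, 4.07% and 4.73%, with CD22, which is near background in Z138, among them each time, in both directions through different probe sets with anti-IgG.

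Other inhibitory receptors were lower in REC1 as well. Of the 14 on the list 12 were on the array and 4 were tested in REC1, and all 4 were lower with anti-IgM, beside 9.03% of all genes lower there: SIGLEC10, a sialic acid lectin with ITIMs, at 133.3 against 946 (log2 change -2.83 ± 0.09), FCRL2 at 151.5 against 732 (-2.28 ± 0.08), FCRL4 at 318 against 1399 (-2.13 ± 0.15) and CD300A, an ITIM receptor for lipids of the membrane, at 318 against 722 (-1.18 ± 0.07). With the anti-IgM fragment the same 4 were lower and with anti-IgG 3 of them, beside 9.71% and 8.21% of all genes. In SUDHL4, where 2 could be tested, SIGLEC10 was lower with rituximab, 162 against 345 (-1.09 ± 0.09), beside 3.67% of all genes. The B cell genes CD79B, PAX5 and EBF1, used here as markers, were also lower in REC1 with anti-IgM. The remaining B cell markers, MS4A1 and CD79A, had untreated means of 3937 and 2619 there. Their lowest signals in any REC1 array were 3158 and 1988. The T cell markers CD3D and CD3G fell with anti-IgM as well. The sum of the 6 T cell markers in REC1 ran from 649.9 to 1611, with CD3E and CD2 below 100 in all arrays, and the part of these shifts in the members' values was not tested.

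Among 18 phosphatases, kinases and adaptors of the inhibitory arm, SHIP1 itself (INPP5D) was lower in REC1 with anti-IgM, 393 against 821 (log2 change -1.06 ± 0.12). The list had 3 lower and 0 higher of 14 tested there, beside 9.03% and 5.75% of all genes. SLA, an adaptor that limits receptor levels in lymphocytes, fell to 42.5 in REC1 with anti-IgM, against 229.8 in the controls (-2.43 ± 0.17), and to 39.3 in SUDHL4 with rituximab, against 115 (-1.54 ± 0.14). In OciLy18 2 of 12 were higher with anti-IgM and 0 lower, beside 2.91% and 1.47% of all genes. PAG1, a membrane adaptor that holds the inhibitory kinase CSK, had 1459 against 259.6 (2.497 ± 0.07), and DOK3, an adaptor that binds SHIP1, 1545 against 666 (1.21 ± 0.07). In Z138 CBLB, a ubiquitin ligase that limits receptor signals, joined them, with 305 against 138.2 (1.14 ± 0.10), 3 of 11 being higher and 0 lower, beside 2.11% and 1.34% of all genes.

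Of 9 genes for ligands and for sialic acids, which CD22 binds, NEU1, a lysosomal sialidase, was higher with every antibody against the B cell receptor in REC1, OciLy18 and Z138. In REC1 anti-IgM gave 348 against 122 (1.51 ± 0.10), and in SUDHL4 anti-IgG gave 256 against 52.0 (2.29 ± 0.16). In SUDHL4 with rituximab 2 of 7 tested were higher and 0 lower, beside 3.08% of all genes higher. In REC1, OciLy18 and Z138 with anti-IgM NEU1 was the 1 of 8 that was higher, beside 5.75%, 2.91% and 2.11%. Among the other Fc receptors FCMR, the receptor for IgM, rose in OciLy18 with anti-IgM (618 against 41.8, 3.89 ± 0.14) and rose in REC1 with all treatments, human IgG included (474 against 151.5, 1.65 ± 0.11). FCRLB, the neighbor of FCRLA, was lower in SUDHL4 with rituximab (49.3 against 179, -1.87 ± 0.11), and FCGR2C with anti-IgG (49.5 against 140.2, -1.50 ± 0.19), although FCGR2C shares sequence with FCGR2B.

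Of the activating arm of the receptor 6 of 12 tested genes were lower in REC1 with anti-IgM and 0 higher, beside 9.03% and 5.75% of all genes. Among them were CD79B, a signal chain of the receptor (293 against 1273, -2.12 ± 0.09), DAPP1, an adaptor behind PI3 kinase (101 against 485, -2.26 ± 0.12), and PLCG2, the phospholipase of the pathway (207 against 532, -1.37 ± 0.09). In SUDHL4 4 of 10 were lower with rituximab and 5 with anti-IgG, beside 3.67% and 5.65% of all genes, and BLNK, the linker between SYK and PLCG2, fell to 234 with rituximab, against 1232 in the controls (-2.39 ± 0.09). In Z138 3 of 11 were lower with anti-IgM, beside 1.34%. In OciLy18 CD79A, the other signal chain, was higher with anti-IgM (2598 against 1019.6, 1.35 ± 0.07), with 2 of 10 higher and 1 lower, beside 2.91% and 1.47%.

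Likeness of pattern was described by Pearson's r of the log2 changes over the 25 comparisons, which share controls, for the 6161 genes tested in all 4 lines. The 3 members measured in all lines were compared in this way. PTPN6 was most like EVI2A (0.954), LYL1 (0.927) and SYS1 (0.919). CD72 was most like HSD17B12 (0.946), DOK3 (0.915) and IRAG2 (0.888), and FCRLA most like CAMK1D (0.965), CDK19 (0.962) and SPATS2 (0.960).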

How the data were processed

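Labelled cRNA made from the RNA of the 96 samples was hybridized to Affymetrix human arrays, and per the labels the authors computed MAS5 signals. The deposited values are linear intensities, 1 per probe set and array, with array totals of 8528610 to 8530010, which is a common scaling. Detection calls were not used here, and the arrays' number, not a read depth, limits the precision. Other deposited tables hold group means and the authors' own change factors and were not used.

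Signals were floored at 1 and set to log2, and limma 3.58.1 in R 4.3.3 (with version 1.17.8 of data.table) was fitted with 1 mean per group: within each line for the treatments, over the 21 control arrays for untreated lines, and over all 96 arrays for differences of responses. eBayes used a variance trend, and p-values were adjusted by Benjamini-Hochberg over all tested probe sets (mean above 100 in at least 1 group). Probe sets with 1 symbol (41097) name genes, while 1801 have several and 11777 none. Checking symbols through their gene IDs changed 0. The fit within a line was tested on simulated data, with changes planted in the anti-IgM arrays for probe sets well above a signal of 100. Planted changes at lower signals, the fit of untreated lines and the differences of responses were not simulated. Promoters are from RefSeq (GRCh38.p14), with all 9 members matched.

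All 9 members are named, with their responses in the lines where they were tested, and from the other lists at most 4 called genes per line with the smallest adjusted p, and the 3 genes of most similar pattern. The members and lists were chosen with earlier results of these data known. Arrays with the same replicate number did not deviate together (mean correlation -0.018 to 0.010 by line), so no block was used. Alternatives were log2(signal + 16), quantile normalization, no filter, no variance trend, a replicate block, other references, a fold rule without test, and each array left out in turn.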

Additional observations from a re-analysis of the deposited data

Results flagged for a closer look

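In 3 of the 15 groups of 6 untreated arrays that were checked, 1 array stood far from the others, and all 3 times it was control replicate 4 of Z138. It had a signal of 109 for FCRL5 (next highest 44.6), 484 for PTPN6 (next highest 202) and 184 for CD72 (next highest 132). A chance rate of about 1 in 20 holds for separate groups of like arrays. It cannot be set against these 3 flags, because they all come from 1 array. The groups also pool the control triplicates of a line, which differed for some members. Groups were taken into the check by their highest signal, and for FCRL5 in Z138 that was the flagged array itself.

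The other results listed here are differences between lines in the response to 1 antibody, each tested in the model of all arrays and given as a difference of log2 changes. SUDHL4 minus REC1 was -1.53 for FCGR2B with rituximab, -1.35 and -1.17 for CD72 with LT20 and anti-IgG, 1.67, 1.97 and 2.16 for FCRL3 with rituximab, LT20 and anti-IgG, and 1.11 for FCRLA with anti-IgG. REC1 minus OciLy18 was -3.27, -3.08 and -2.52 for PTPN6 with anti-IgM, its fragment and anti-IgG, and -1.75, -1.78 and -2.05 for FCRLA. REC1 minus Z138 was -2.21, -2.21 and -1.99 for PTPN6 with the same antibodies, -1.97, -2.06 and -1.89 for FCRLA and -2.15, -1.85 and -1.32 for FCGR2B. It was -1.28 for FCRL5 with the anti-IgM fragment and -1.83 with anti-IgG. OciLy18 minus Z138 was 1.06 for PTPN6 with anti-IgM and -1.49 for FCRL5 with anti-IgG. The differences with anti-IgG set REC1, compared with controls 1 to 3, against lines compared with controls 4 to 6. For CD72, human IgG alone gave a change of 0.95 in REC1 and -0.01 in SUDHL4, and its line differences against isotype were not tested. Human IgG also gave 0.45 for PTPN6 and -0.42 for FCGR2B in REC1, and their line differences against isotype were not tested.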

How the results depend on the processing

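The members called per line changed by more than 1.5 times in 1 case: with the isotype arrays as reference, REC1 had 13 calls in place of 26, since CD72 and CD22 no longer reached 2-fold and the FCGR2B means lay under 100. LT20 against rituximab had 2 calls, 0 with log2(signal + 16) and 1 after quantile normalization. Of the 51 differences between lines 26 were left when only members tested in both lines were counted by their main probe set, an alternative chosen after seeing the data. Leaving out each array in turn gave 11 to 12 calls in SUDHL4, 25 to 27 in REC1, 10 to 11 in OciLy18, 9 in Z138, 34 to 36 between untreated lines, 48 to 54 between responses, 0 for the fragments, 0 to 2 for LT20 against rituximab (0 without rituximab replicate 3 of REC1) and 1 to 2 between control triplicates (2 without control replicate 2 of Z138). With the replicate number as a block the counts were 26 in REC1, 8 in SUDHL4, 7 in OciLy18 and 6 in Z138, as without it over the same comparisons. For anti-IgG outside REC1, no paired analysis was possible because its arrays share no number with the controls used there. The share of all genes called moved by more than 1.5 times in 21 of 25 comparisons without the filter and in 8 of 21 against isotype. With log2(signal + 16) it moved in 4 of 25. Of the 57 calls of members by any probe set 52 remained with log2(signal + 16) and 39 against isotype. Of 51 called responses of main probe sets 50 kept their call without any 1 array, CD22 with anti-IgM in REC1 being the exception. None changed direction. Signals under 100 have no detection call here, and 3 arrays a group limit the precision.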
